A study of Mus musculus with 12 samples.

Results

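The carboxylesterases described here are 9 mouse genes, Ces1d, Ces1e, Ces1f and Ces1g of the Ces1 subfamily and Ces2a, Ces2b, Ces2c, Ces2e and Ces2g of the Ces2 subfamily. They were listed by symbol and found by that symbol in the gene table of the adult samples, then matched to the table of the neonatal samples by Entrez Gene identifier. All 9 were in both tables, out of 23954 genes in the adult table and 23333 in the neonatal one. Their mRNA was measured by RNA-seq in whole small intestine of C57BL/6 mice in 4 groups with 3 libraries each, a library being a pool of RNA from 2 mice. The groups were NCoR1 intestinal knockout (KO) neonates and wild type (WT) neonates, both at postnatal day 12, and KO adults and WT adults, both 10 weeks old. NCoR1 is the nuclear receptor corepressor 1, a protein that holds target genes of unliganded nuclear receptors in a repressed state. The sources used here do not give the promoter or Cre that removed the gene, and the strain names F/FUN and DIECUN in the design text are not explained there. Nothing in them says whether the pools of a group came from separate litters, so p-values measure the spread between these pools. The tissue was bulk, so fewer cells of a type and less RNA per cell cannot be told apart.

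Carboxylesterases are serine hydrolases that split ester and amide bonds, and most are held in the lumen of the endoplasmic reticulum by a retention signal at their carboxyl end. In liver and small intestine they hydrolyse ester drugs and prodrugs on the way in from the gut, and several also act on acylglycerols and other lipid esters. Mouse genes of the Ces1 subfamily are best known from liver, while the Ces2 subfamily includes the main intestinal forms. In rodent liver several Ces genes are induced by drugs that activate the nuclear receptors PXR and CAR.

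The 9 genes sit in 2 clusters on chromosome 8 (mm9, the build of the deposited tables). The 4 Ces1 members lie on the minus strand between 95689971 and 95861108, a span of 171 kb, with Ces1g first in the direction of transcription, then Ces1f, Ces1e and Ces1d. The 5 Ces2 members lie on the plus strand between 107257903 and 107493437, a span of 236 kb, in the order Ces2a, Ces2b, Ces2c, Ces2e and Ces2g. Promoter windows of 250 bases ending just before the start site were in the RefSeq table used here (GRCm38.p6) for 6 of the 9 members, Ces1e, Ces1g, Ces2a, Ces2c, Ces2e and Ces2g; no window is shown for Ces1d, Ces1f or Ces2b. The 4 windows of the Ces2 subfamily are printed because these neighbouring genes differed from each other in how their mRNA stood in KO and WT intestine. Capitals mark runs of 8 or more bases found in at least 3 of the 4 windows.
Ces2a (chr8:104733753-104734002, + strand): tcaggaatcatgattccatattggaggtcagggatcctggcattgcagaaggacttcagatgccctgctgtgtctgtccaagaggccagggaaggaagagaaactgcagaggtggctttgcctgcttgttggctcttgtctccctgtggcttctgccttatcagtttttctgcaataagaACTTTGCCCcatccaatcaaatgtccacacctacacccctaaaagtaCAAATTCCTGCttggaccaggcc
Ces2c (chr8:104846818-104847067, + strand): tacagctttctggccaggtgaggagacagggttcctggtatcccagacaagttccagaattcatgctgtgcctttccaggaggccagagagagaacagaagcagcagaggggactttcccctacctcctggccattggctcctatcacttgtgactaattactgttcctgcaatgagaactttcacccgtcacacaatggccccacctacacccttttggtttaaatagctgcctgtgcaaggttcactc
Ces2e (chr8:104926010-104926259, + strand): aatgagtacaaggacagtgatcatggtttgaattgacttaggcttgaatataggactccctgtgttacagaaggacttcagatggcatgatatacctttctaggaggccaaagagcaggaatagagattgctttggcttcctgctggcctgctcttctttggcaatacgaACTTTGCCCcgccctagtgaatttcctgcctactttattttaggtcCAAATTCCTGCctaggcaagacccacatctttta
Ces2g (chr8:104961468-104961717, + strand): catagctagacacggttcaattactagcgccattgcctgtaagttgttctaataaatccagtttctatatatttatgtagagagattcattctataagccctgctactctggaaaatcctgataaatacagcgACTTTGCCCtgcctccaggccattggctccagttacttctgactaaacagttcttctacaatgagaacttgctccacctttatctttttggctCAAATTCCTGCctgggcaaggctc

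Both capitalised runs, ACTTTGCCC and CAAATTCCTGC, were in the windows of Ces2a, Ces2e and Ces2g and not in that of Ces2c. They were chosen by comparing these windows. Searched only on the strand of each window as given, ACTTTGCCC was in 0.122% and CAAATTCCTGC in 0.0213% of all 32851 RefSeq windows of that length. The half-site of many nuclear receptors, AGGTCA, was present once among the 6 windows, on the plus strand of Ces2a with its first base 226 bases before the start site, and it was in 14% of all windows. No other listed motif was found in the 6 windows on either strand. Those were AGTTCA (in 11.8% of all windows), GTTAAT (6.43%), and the direct repeats DR4 (0.0152%) and DR1 (0.0335%), which are pairs of AGGTCA and so overlap with that motif. A match of letters is a description and not a binding site. Between pairs of the 4 Ces2 windows, 64.2% to 70.9% of aligned bases were identical. Pairs of a Ces1 and a Ces2 window had 55.8% to 66.5%, so the 2 ranges overlapped. Gaps were left out of these shares.

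Library depth, as reads in genes recovered from the deposited values, was (in units of 1e+06) 5.93 to 8.31 in KO neonates, 8.44 to 9.34 in WT neonates, 11.9 to 13.1 in KO adults and 9.78 to 11.8 in WT adults. Levels are given as counts per 1e+06 of those reads (CPM), and as CPM per kilobase of exon where genes are compared with each other. Ncor1 itself had 213 to 245 CPM in KO neonates against 447 to 459 CPM in WT neonates, and 159 to 168 CPM in KO adults against 240 to 252 CPM in WT adults, so the libraries followed their labels. Over all genes tested, limma called 3009 in neonates (741 higher in KO, 2268 lower) and 2611 in adults (741 higher in KO, 1870 lower). This split depended on the scaling: with TMM factors it was 1342 higher and 1026 lower in neonates and 1250 higher and 911 lower in adults, since TMM moved the median log2 difference of all genes to -0.01 in both ages, against -0.11 in both ages with the deposited scaling. No member called in the main comparisons changed direction or lost its call with TMM. Enterocyte markers were detected in all libraries, with 10 genes summing to 31144 to 32032 CPM in KO neonates, 21846 to 23673 CPM in WT neonates, 41409 to 44958 CPM in KO adults and 36117 to 42558 CPM in WT adults.

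In KO neonates 7 of the 9 carboxylesterase mRNAs were called higher than in WT neonates by limma, where 5.21% of all 14215 genes tested were called higher and 16% lower, 21.2% together. The other 2 were below the filter, and 3 of the 7 calls, those of Ces2c, Ces2e and Ces2g, were lost in most omissions of 1 library (called in 1, 2 and 2 of 6). Ces2a had the largest ratio of means, at 4.45 times the WT mean, closely followed by Ces2b (4.04 times). Next were Ces1f (3.39 times), Ces2c (3.30 times) and Ces1e (1.98 times), while Ces2g (1.54 times) and Ces2e (1.18 times) differed less. Members were not tested against each other. In KO adults the Ces2a, Ces2b and Ces2c mRNAs were higher than in WT adults, at 7.08, 12.9 and 2.93 times the WT mean, where 5.5% of 13463 genes tested were called higher and 13.9% lower, 19.4% together. The other 6 members did not pass the test.

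**Figure D1:**
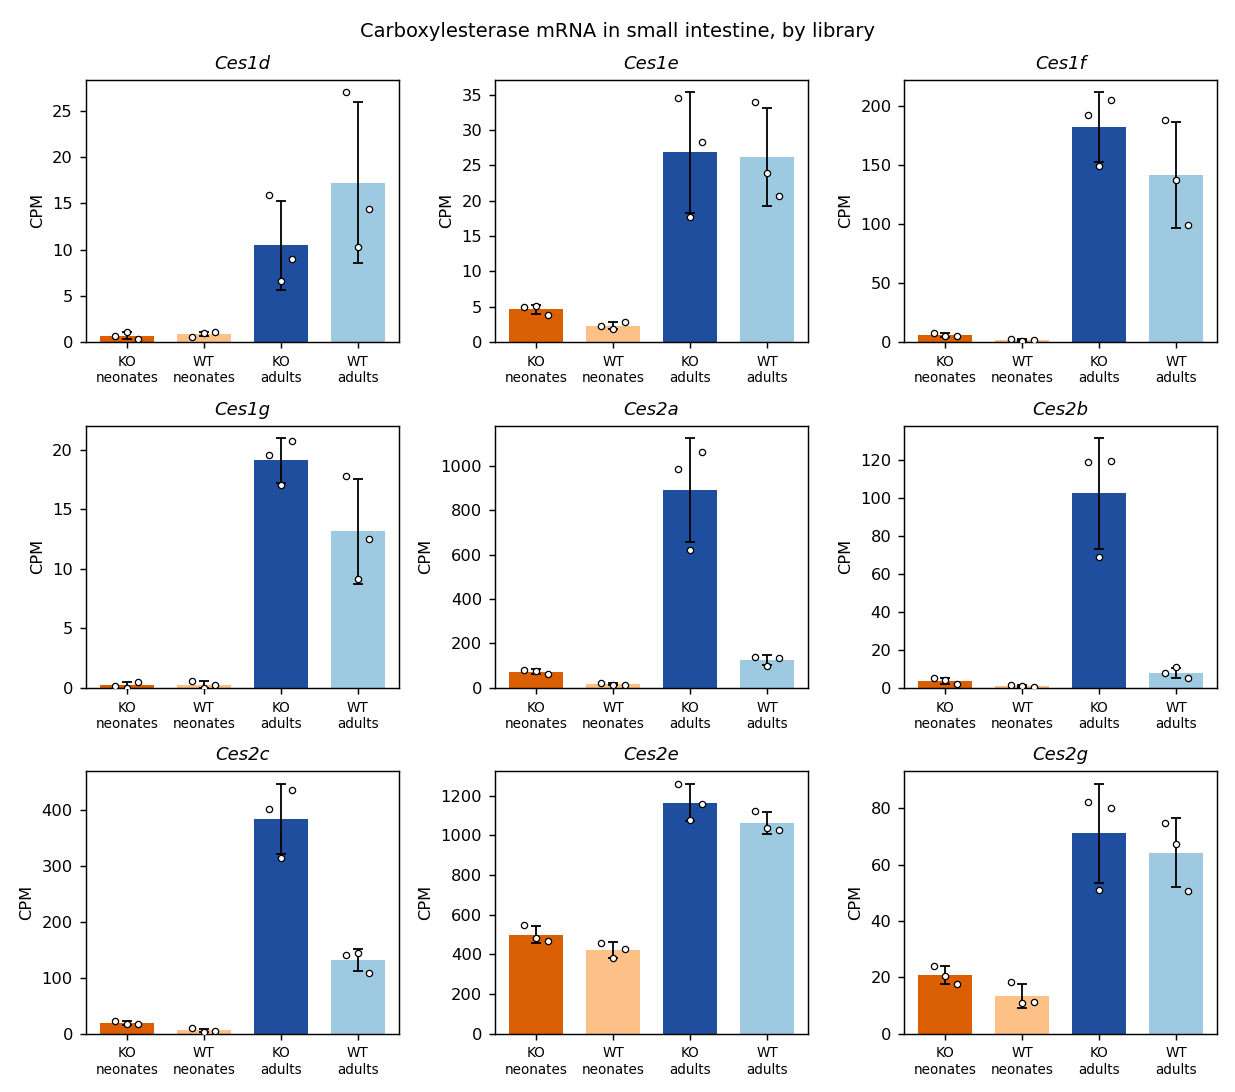
Level of each carboxylesterase mRNA in CPM (linear axis from 0) in the 4 groups. Bars are means, error bars SD (n = 3), and points single libraries. For Ces2a, Ces2b and Ces2c the 3 KO libraries lie above the 3 WT libraries at both ages.

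Ces2a, known in the mouse also as Ces6, had 82.1, 78.2 and 60.5 CPM in KO neonates, against 21.0, 13.6 and 15 CPM in WT neonates. In adults it had 985, 622 and 1062 CPM in the KO libraries, against 140.2, 100.6 and 135.9 CPM in the WT libraries. The groups did not overlap at either age, and the lowest KO library at each age was well above the highest WT library. The log2 difference on the log2(CPM + 1) scale, KO minus WT, was 2.10 (SE 0.177) in neonates with an adjusted p of 1.63e-04 by limma. In adults it was 2.79 (SE 0.256) with an adjusted p of 0.00268 by limma. Ces2a passed under every other setting tried and with any 1 library left out, at both ages.

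Ces2b had 5.05, 4.09 and 1.86 CPM in KO neonates, against 1.29, 0.96 and 0.47 CPM in WT neonates. These neonatal levels rest on 40, 34 and 11 reads in the KO libraries and 11, 9 and 4 in the WT libraries. The KO libraries were all above the WT libraries, but Ces2b reached the filter of 1 CPM in at least 3 libraries only through the KO group, so its presence among the neonatal genes tested already required a difference. The neonatal log2 difference was 1.24 (SE 0.263, limma adjusted p = 0.00248). In adults Ces2b had 118.6, 68.6 and 119.5 CPM in the KO libraries, against 7.65, 10.8 and 5.32 CPM in the WT libraries. It was the member with the lowest level per kilobase in WT adults and the fifth of 9 in KO adults. The adult log2 difference was 3.53 (SE 0.342, limma adjusted p = 0.00417) and was called with any 1 library left out.

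Ces2c, an acylglycerol hydrolase of mouse liver and intestine, had 22.7, 18.3 and 16.7 CPM in KO neonates, against 9.73, 3.64 and 4.15 CPM in WT neonates. WT neonates replicate 1 was more than double the other WT libraries of that age, and the groups still did not overlap. The neonatal log2 difference was 1.66 (SE 0.355, limma adjusted p = 0.0280). That call was lost when any neonatal library other than WT replicate 1 was left out (adjusted p from 0.0662 to 0.0882), and without WT replicate 1 the adjusted p was 3.35e-08. In adults Ces2c had 402, 315 and 436 CPM in the KO libraries, against 140.2, 144.9 and 108.5 CPM in the WT libraries. All 3 KO libraries were above all 3 WT libraries, and the log2 difference was 1.54 (SE 0.145, limma adjusted p = 2.70e-04), called with any 1 library left out.

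Ces2e and Ces2g, which lie downstream of those 3 genes in the cluster, showed smaller differences. Ces2e had 546, 484 and 468 CPM in KO neonates, against 458, 381 and 425 CPM in WT neonates. The groups did not overlap, by a narrow margin, and the log2 difference was 0.24 (SE 0.0706, limma adjusted p = 0.0238). The Ces2e call was lost with the deposited RPKM values (0.17, adjusted p = 0.115) and without KO replicate 1 or 2 or WT replicate 2 or 3 (adjusted p from 0.050 to 0.0893). In adults Ces2e had 1259, 1078 and 1158 CPM in the KO libraries, against 1124, 1039 and 1024 CPM in the WT libraries. The adult groups overlapped and the log2 difference was 0.13, with a 95% interval of -0.06 to 0.32 (limma adjusted p = 0.318).

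Ces2g had 24.0, 20.4 and 17.7 CPM in KO neonates, against 18.3, 10.8 and 11.3 CPM in WT neonates. The lowest KO library was below the highest WT library. The log2 difference of 0.62 (SE 0.186) had a limma adjusted p of 0.0398. It rose to 0.147 in a single fit of all 4 groups, and without KO replicate 1 or 2 or WT replicate 2 or 3 it ranged from 0.109 to 0.121. In adults Ces2g had 82.4, 50.9 and 80.1 CPM in the KO libraries, against 74.8, 67.2 and 50.7 CPM in the WT libraries. The groups overlapped, with a log2 difference of 0.13 and a 95% interval of -0.48 to 0.75 (limma adjusted p = 0.748).

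Among the Ces1 genes, Ces1f and Ces1e were higher in KO neonates at low levels. Ces1f, one of the liver triacylglycerol hydrolases by its alias TGH-2, had 7.83, 5.41 and 5.06 CPM in KO neonates, against 2.46, 1.28 and 1.66 CPM in WT neonates. The groups did not overlap and the log2 difference was 1.34 (SE 0.205, limma adjusted p = 8.47e-05). In adults Ces1f had 192, 149 and 205 CPM in the KO libraries, against 188, 137 and 99 CPM in the WT libraries. The adult groups overlapped, and the log2 difference of 0.40 had a 95% interval of -0.32 to 1.11 (limma adjusted p = 0.378).

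Ces1e encodes egasyn, which holds beta-glucuronidase in the endoplasmic reticulum. It had 4.93, 5.05 and 3.88 CPM in KO neonates, against 2.34, 1.82 and 2.84 CPM in WT neonates. The groups did not overlap, and the log2 difference was 0.76 (SE 0.189, limma adjusted p = 0.00688). In adults it had 34.5, 17.7 and 28.3 CPM in the KO libraries, against 34, 23.9 and 20.7 CPM in the WT libraries. The WT range lay within the KO range, with a log2 difference of 0.02 and a 95% interval of -0.78 to 0.81 (limma adjusted p = 0.980). The sign of that small value changed with the library left out, from -0.19 without KO adults replicate 1 to 0.28.

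Ces1g, whose loss in mice causes fatty liver, had 1, 0 and 3 reads in KO neonates, against 5, 0 and 2 reads in WT neonates, too few for a test. In adults it had 19.6, 17.1 and 20.7 CPM in the KO libraries, against 17.8, 9.14 and 12.5 CPM in the WT libraries. WT adults replicate 1 overlapped the KO range and the other WT libraries were below it. The log2 difference of 0.55 (SE 0.205) had a limma adjusted p of 0.0969. Ces1g passed without WT adults replicate 1 (0.78, adjusted p = 0.00285) and with DESeq2 (0.65, adjusted p = 0.0204). In the authors' deposited table, where adult differences are coded WT minus KO, Ces1g was at -0.65 with an adjusted p of 0.00830.

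Ces1d, the triacylglycerol hydrolase TGH that mobilises stored lipid in liver and fat, had 5, 9 and 2 reads in KO neonates, against 5, 9 and 9 reads in WT neonates, and did not reach the filter. In adults it had 15.9, 6.59 and 8.98 CPM in the KO libraries, against 27.0, 10.3 and 14.4 CPM in the WT libraries. Both groups spread over more than a 2-fold range and overlapped. The log2 difference was -0.64 with a 95% interval of -1.94 to 0.65 (limma adjusted p = 0.420). It was the only member with a lower mean in KO adults.

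Over the family, the 7 neonatal calls include Ces2b, which was tested only because its KO libraries passed the filter, so the number is a description. In DESeq2, which gives no adjusted p for Ces1e, Ces1f and Ces2b, 4 members were called, and with 1 library left out 4 to 7 were called. With no filter, the median log2 difference of all 9 was 0.76 in KO neonates, against -0.06 over all genes. For 6 of the 9 members all 3 KO libraries were above all 3 WT libraries, a pattern seen in 8.62% of genes tested in neonates, and 0 members showed the reverse, seen in 28.3%. In adults 3 of 9 members tested were called higher and 0 lower by limma, with 0 lower at an unadjusted p under 0.05 and 0 lower by edgeR and by DESeq2. The same 3 adult members, Ces2a, Ces2b and Ces2c, were the ones whose 3 KO libraries lay above all 3 WT libraries, a pattern seen in 10.4% of genes tested, and 0 members showed the reverse, seen in 27.8%. The median log2 difference of the 9 members in adults was 0.40, against -0.11 over all genes.

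**Figure D2:**
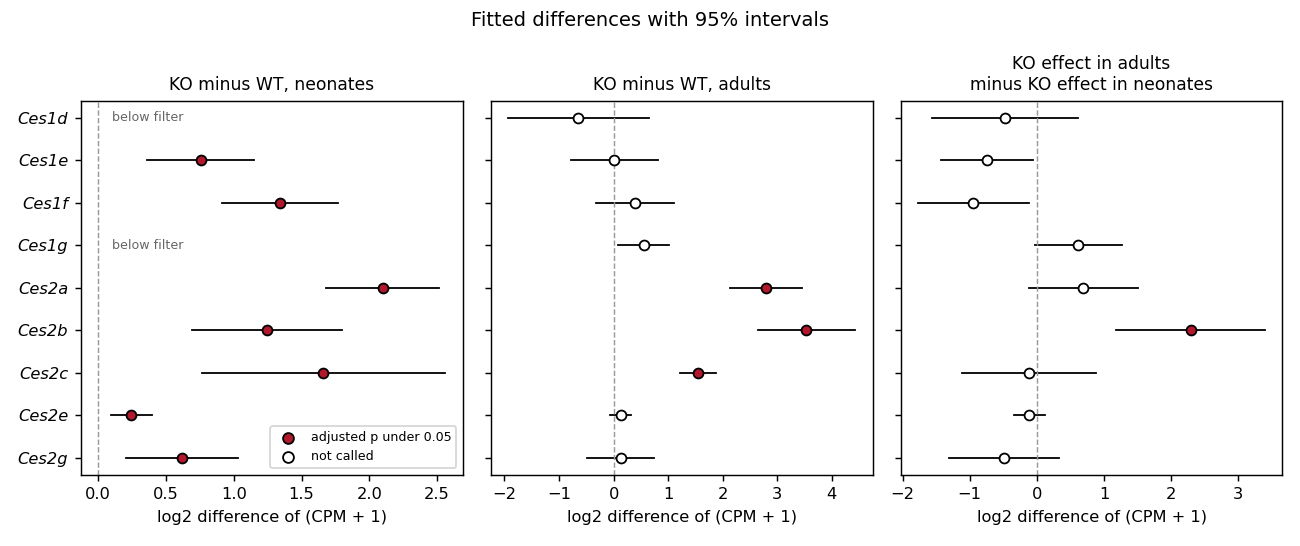
Fitted differences on the log2(CPM + 1) scale, with 95% intervals, for KO minus WT in neonates, KO minus WT in adults, and the adult KO effect minus the neonatal one. Filled points have a limma adjusted p under 0.05: all 7 members tested in neonates, Ces2a, Ces2b and Ces2c in adults, and Ces2b for the difference between ages.

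Other cell markers moved in the neonates as well. The enterocyte markers summed to 1.38 times the WT mean in KO neonates, without overlap, and 8 of 10 were called higher. Apoa1 made up 59.5% of the sum in KO neonates and 54.1% in WT neonates, and the other 9 markers summed to 1.22 times the WT mean. Single markers ranged from 0.904 times the WT mean for Cdx2, which was uncalled, through 1.08 for Epcam, also uncalled, and 1.14 for Vil1 to 1.52 for Apoa1. Myeloid markers summed to 252 to 305 CPM in KO neonates against 361 to 405 CPM in WT neonates, and 5 of 8 were called lower. Cd68, at 1.23 times the WT mean, and Cd14, at 1.41 times, went the other way and were uncalled. Of all genes tested in neonates, 5.21% were called higher and 16% lower. Because Ces1 genes are strongly expressed in liver, 10 liver markers were also measured, and they summed to 326 to 347 CPM in KO neonates against 204 to 224 CPM in WT neonates. That sum was mostly Ttr, at 303 CPM on average in KO neonates against 142 CPM in WT neonates, while Fga, Fgb and Serpina1a were called lower and Alb averaged 1.01 CPM in KO neonates against 7.12 CPM in WT neonates. The part of these shifts in the neonatal carboxylesterase differences was not tested. Beside the ratio of 1.38 for the enterocyte sum, or 1.22 without Apoa1, the KO over WT ratio of means was 1.18 for Ces2e, 1.54 for Ces2g and 1.98 for Ces1e, and 3.30 or more for Ces2a, Ces2b, Ces1f and Ces2c.

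In adults the enterocyte markers overlapped between KO and WT, with 1.08 times the WT mean in KO adults, 1 called higher and 1 lower of 10. Of all genes tested in adults, 5.5% were called higher and 13.9% lower. Liver markers summed to 4.60 to 7.57 CPM in KO adults against 7.63 to 11.2 CPM in WT adults. Ahsg and Fga had 0 reads in every KO adult library, and at most 2 and 1 reads in a WT adult library. Ttr averaged 1.92 CPM in KO adults against 3.88 CPM in WT adults and was called lower (-0.76, limma adjusted p = 0.0122). Cyp2e1, Apoh and Hpx also had lower means in KO adults, while Alb, Apoc4, Fgb and Serpina1a had higher ones. Adipocyte markers summed to 127 to 133 CPM in KO adults against 121 to 160 CPM in WT adults, and 0 of the 5 tested were called. Lipe made up 78.8% of that sum in KO adults and 71.6% in WT adults. The other 7 adipocyte markers summed to 0.69 times the WT mean in KO adults. Pancreas markers varied widely, from 312 to 2135 CPM in KO adults against 2000 to 5995 CPM in WT adults. Their part in the adult results was not tested. KO adults replicate 2 was the lowest of its group for all 9 members, and KO neonates replicate 3, the shallowest library, was the lowest of its group for 8 of 9.

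The KO effect was set against age in a single fit of the 4 groups. Of the 9 members only Ces2b passed, where 3.02% of 14588 genes were called with a larger difference in adults and 2.44% with a smaller one. Its KO minus WT difference was 2.29 larger in adults than in neonates on the log2(CPM + 1) scale (SE 0.494, limma adjusted p = 0.0282). The pseudocount weighs on genes near 1 CPM, such as neonatal Ces2b: with a pseudocount of 0.25 the value was 1.94 (adjusted p = 0.121), and by edgeR it was 1.64 (adjusted p = 0.415). The call was also lost without WT neonates replicate 1 or 2, KO adults replicate 3, or WT adults replicate 1 or 3 (adjusted p from 0.0514 to 0.0817). Ces2a had a value of 0.69 with an interval of -0.12 to 1.5 and Ces2c of -0.12 with an interval of -1.12 to 0.88. For Ces1f the value was -0.95 (interval -1.77 to -0.12, limma adjusted p = 0.195) and for Ces1e -0.74 (interval -1.43 to -0.05, limma adjusted p = 0.219). The intervals of Ces2e (-0.34 to 0.12), Ces2g (-1.30 to 0.33), Ces1d (-1.57 to 0.61) and Ces1g (-0.03 to 1.27) covered 0. Calling Ces1e, Ces1f, Ces2e and Ces2g in neonates and not in adults therefore does not show that their KO effects differed between ages.

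Levels per kilobase show which forms made up the family in each group. In KO neonates Ces2e was first with 186 ± 15.4 CPM per kb, followed without overlap by Ces2a (37.8 ± 5.90), Ces2c (9.84 ± 1.61), Ces2g (7.28 ± 1.11) and Ces1f (3.21 ± 0.796; SD, n = 3). Ces1e and Ces2b came next and overlapped each other, and Ces1d and Ces1g were last and also overlapped. In WT neonates Ces2e had 157 ± 14.4 CPM per kb and Ces2a 8.48 ± 2.01, and below them Ces2g and Ces2c overlapped, as did each neighbouring pair from Ces1e through Ces1f and Ces2b to Ces1d.

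In KO adults Ces2a, at 456 ± 121 CPM per kb, and Ces2e, at 434 ± 33.8, overlapped at the top, with Ces2c (197 ± 32.0), Ces1f (95.8 ± 15.5), Ces2b (54.3 ± 15.5) and Ces2g (25.0 ± 6.16) below them in that order without overlap. Ces1e, Ces1g and Ces1d came last, each overlapping the next. In WT adults Ces2e was alone at the top with 396 ± 20.1 CPM per kb, and Ces1f (74.5 ± 23.5), Ces2c (67.1 ± 10.1) and Ces2a (64.4 ± 11.1) overlapped. Ces2g followed at 22.6 ± 4.32, and each neighbouring pair from Ces1e through Ces1d and Ces1g to Ces2b, the last, overlapped. The deposited RPKM values gave the same order in all 4 groups.

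Set against Ces2e within the same library, Ces2a per kilobase was 1.08, 0.79 and 1.26 times as high in KO adults, against 0.17, 0.13 and 0.18 times in WT adults. In neonates the ratio was 0.21, 0.22 and 0.18 in KO libraries, against 0.06, 0.05 and 0.05 in WT libraries. The KO and WT ratios did not overlap at either age. Being a ratio within a library, it shows that Ces2a and Ces2e changed unequally, whatever the scaling. The ratio of Ces2b to Ces2a was 0.12, 0.11 and 0.12 in KO adults, against 0.06, 0.11 and 0.04 in WT adults, close together among the KO libraries and spread among the WT ones.

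Summed over the 9 genes, the level was 249 ± 24.8 CPM per kb in KO neonates, against 176 ± 19.7 in WT neonates, and 1289 ± 221 in KO adults, against 656 ± 66.2 in WT adults (SD, n = 3). The KO sum was 1.41 times the WT sum in neonates and 1.97 times in adults. Ces2a supplied 61.9% of the summed difference in adults, Ces2c 20.5% and Ces2b 7.92%, while in neonates Ces2a supplied 40.5% and the abundant Ces2e 39.9%. As a share of the family, Ces2a made up 35 ± 3.76% in KO adults against 9.85 ± 1.72% in WT adults, and 15.1 ± 1.32% in KO neonates against 4.77 ± 0.609% in WT neonates. Ces2e made up 34.1 ± 4.35% in KO adults against 60.5 ± 3.0% in WT adults, and 74.9 ± 1.94% in KO neonates against 89.2 ± 2.01% in WT neonates. The 2 subfamilies differed in size: Ces1 genes together had 123 ± 21.4 CPM per kb in KO adults against 102 ± 32.0 in WT adults, and Ces2 genes had 1166 ± 199.6 in KO adults against 554 ± 34.3 in WT adults.

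**Figure D3:**
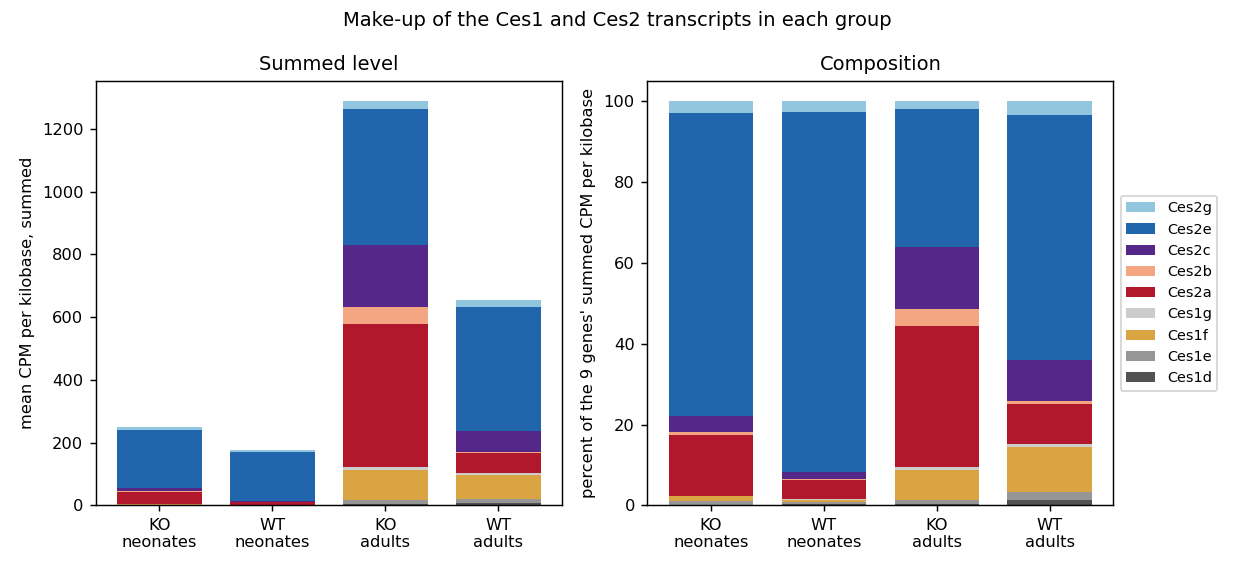
Mean CPM per kilobase of the 9 genes stacked by group (left) and the same as a percent of their sum (right). In KO adults Ces2a and Ces2e make up 35% and 34.1%, and in WT adults 9.85% and 60.5%.

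The adult libraries held far more Ces mRNA than the neonatal ones in both genotypes, but the 2 tables were scaled separately, so age and table cannot be told apart and no test was run. Ces1g had 19.1 ± 1.87 CPM in KO adults and 13.2 ± 4.39 CPM in WT adults (SD, n = 3), and at most 5 reads in any neonatal library. Ces1f had 29.8 times its KO neonatal mean in KO adults and 78.5 times its WT neonatal mean in WT adults. Ces2b stood at 27.9 times the KO neonatal mean in KO adults and at 8.73 times the WT neonatal mean in WT adults. Ces2e differed least, at 2.33 times the KO neonatal mean in KO adults and 2.52 times the WT neonatal mean in WT adults. The Ces1 sum was 20.8 times higher in KO adults than in KO neonates and 38.4 times higher in WT adults than in WT neonates, while the Ces2 sum was 4.80 times higher in KO adults than in KO neonates and 3.19 times higher in WT adults than in WT neonates.

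Among the 5 Ces2 members the called adult differences belonged to the 3 genes nearest the 5′ end of the cluster. The start sites of Ces2b and Ces2c lie 97.6 and 113 kb after that of Ces2a, and those of Ces2e and Ces2g, uncalled in adults, 192 and 228 kb after it. Ces2d-ps lies between Ces2c and Ces2e, and Ces2f between Ces2e and Ces2g. Ces2f was below the filter, with 6 to 8 reads in KO adult libraries against 1 to 5 in WT adult libraries, without overlap in CPM. Ces2h, Ces3a, Ces3b and Ces4a, all near 0, lie just after Ces2g. On either side of the Ces1 members lie Ces1c, with 15 to 84 reads per library, and Ces5a, with 0 reads. The nearest genes outside the family on either side of the Ces2 members were Fam96b, at 33.7 ± 1.59 CPM in KO adults against 31.4 ± 1.84 in WT adults, and Cbfb, at 36.6 ± 2.67 CPM in KO adults against 45.0 ± 2.96 in WT adults (SD, n = 3). Cbfb was called lower in KO adults (-0.29, limma adjusted p = 0.0379), a call lost with TMM (-0.18, adjusted p = 0.167) and without KO adults replicate 2 or 3 or WT adults replicate 2 or 3 (adjusted p from 0.0890 to 0.157). Of those nearest the Ces1 members, Slc6a2 was at or near 0 and Gnao1 had 5.11 ± 0.142 CPM in KO adults against 6.89 ± 0.997 in WT adults (SD, n = 3). The transcript 4932416K20Rik, which lies among the Ces2 members, had 0 reads in every library.

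**Figure D4:**
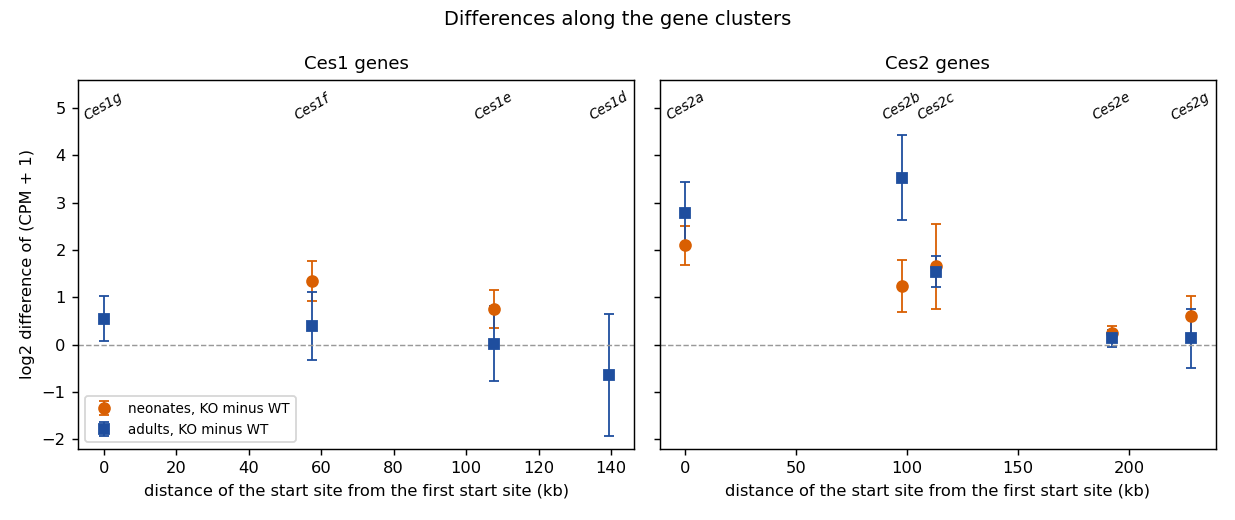
KO minus WT difference on the log2(CPM + 1) scale, with 95% intervals, against the distance of each start site from the first start site of its cluster in the direction of transcription (kb). In the Ces2 cluster Ces2a, Ces2b and Ces2c are at 1.24 or above at both ages, and Ces2e and Ces2g at 0.62 or below.

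The similarity of these genes limits how reads can be assigned, and the sources used here do not say how reads with several matches were handled. Of all windows of 36 bases, the read length, in the Ces2c reference transcript (GENCODE, mm9), 73.2% were also found exactly in the transcript of another gene, and 70.9% in the pseudogene Ces2d-ps. For Ces2b the share was 13.5%, and for the other 7 members 2.91% to 7.19%. The Ces2b transcript searched had 3408 bases, against a deposited exon length of 1881 bases. Its shares therefore include sequence outside the counted exons. With up to 2 mismatches the shares were 89.0% for Ces2c, 38.3% for Ces2b and 16.1% to 28.5% for the others. Ces2d-ps had 0 to 3 reads in any library. The level of Ces2c is therefore uncertain to the extent that its reads were dropped or assigned elsewhere. KO and WT libraries were counted in the same way. Of the 3373 windows of Ces2b, 206 were also found exactly in Ces2c. For 758 of them Ces2c was the closest match within 2 mismatches. How far reads of Ces2b and Ces2c were counted for each other was not tested, so their differences may not be independent.

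Of 11 other carboxylesterase genes listed, 10 were in the adult table and 9 in the neonatal one, and almost all were close to 0. Ces5a had 0 reads in all 12 libraries, a count that allows up to 3 reads, or 0.230 to 0.506 CPM, per library. Ces1a, Ces4a and Ces2d-ps had at most 3 reads in any library, Ces3b at most 6 and Ces2f at most 8. Ces1c, a secreted plasma form in mice, was the only one tested in neonates, with 2.52 ± 0.616 CPM in KO neonates against 4.80 ± 1.28 CPM in WT neonates (SD, n = 3). It was called lower, with a log2 difference of -0.71 (SE 0.206, limma adjusted p = 0.0180), and the call was lost without KO replicate 1 or WT replicate 1 or 3 (adjusted p from 0.0781 to 0.0930). In adults Ces1b, Ces1c and Ces3a were tested and 0 were called by limma, DESeq2 or edgeR, with 0 at an unadjusted limma p under 0.05. Ces2h, in the adult table only, had 4 to 16 reads per library.

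Other hydrolases did not move as a block. Among 11 tested, KO neonates had 3 higher and 2 lower calls and KO adults 2 higher and 3 lower calls, with medians of 0.03 and -0.16 against -0.11 over all genes at each age. Of all genes tested, limma called 5.21% higher and 16% lower in neonates, and 5.5% higher and 13.9% lower in adults. The same shares stand beside the counts of the gene lists below. Acot1 and Acot2, the cytosolic and mitochondrial acyl-CoA thioesterases, were higher by 0.59 and 0.48 on the log2 scale in KO neonates (limma adjusted p = 2.56e-06 and 2.04e-04). In KO adults they were higher by 2.57 and 1.83 (limma adjusted p = 0.00879 and 4.56e-04). Acot1 had 0.98 to 1.64 CPM (11 to 16 reads) in WT adults and reached the adult filter only with the KO libraries. Bche, butyrylcholinesterase, was lower by a log2 difference of -0.32 in KO neonates (limma adjusted p = 0.00358) and -1.16 in KO adults (limma adjusted p = 0.0153). Its adult call was lost without KO adults replicate 3 or WT adults replicate 1 or 2 (adjusted p from 0.0533 to 0.0673). Pon3, a lactonase of the paraoxonase family, had a log2 difference of -0.57 in KO adults (limma adjusted p = 0.00122) and of -0.30 in KO neonates (limma adjusted p = 0.00699), and the neonatal call was lost with TMM (-0.19, adjusted p = 0.108) and without WT neonates replicate 1 (adjusted p = 0.0531). In a single fit of all 4 groups the neonatal calls of Acot1, Acot2 and Bche were lost (adjusted p = 0.274, 0.0929 and 0.255). Without WT adults replicate 1 or 2 the adult call of Acot1 was lost (0.0587 and 0.0625).

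Intracellular lipases and lipid droplet proteins share acylglycerol substrates with several carboxylesterases. Of the 12 tested, KO neonates had 4 higher and 1 lower calls and KO adults 4 higher and 0 lower calls, with medians of 0.10 and 0.07. Plin2, a coat protein of lipid droplets, was higher by 0.82 in KO neonates and 1.15 in KO adults on the log2 scale (limma adjusted p = 6.65e-10 and 8.07e-06). Pnpla3 was higher by 1.21 and Ddhd2, a triacylglycerol hydrolase best known from brain, by 0.38 in KO neonates (limma adjusted p = 2.21e-04 and 3.98e-04). Pnpla3 had 0.86 to 1.66 CPM (8 to 14 reads) in WT neonates and reached the filter only with the KO libraries. In KO adults Pnpla3 had a log2 difference of 0.04 (limma adjusted p = 0.913), and Ddhd2 was higher by 0.26 (limma adjusted p = 0.0316), a call lost without KO adults replicate 2 or 3 or any WT adults library (adjusted p from 0.0527 to 0.104). Pnpla2, adipose triglyceride lipase, was higher by 0.68 and Plin3, another droplet coat protein, by 0.29 in KO adults (limma adjusted p = 1.73e-04 and 0.0208). The adult count fell to 2 without KO adults replicate 2 or 3 or WT adults replicate 1 or 2, and the Plin3 call was lost each time (adjusted p from 0.0585 to 0.0999).

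Triacylglycerol synthesis and chylomicron assembly were represented by 11 genes tested, with 5 higher and 1 lower calls in KO neonates (median 0.16) and 3 higher and 0 lower calls in KO adults (median 0.13). Apob, the structural protein of chylomicrons, was higher by 0.63, Mttp, which loads lipid onto it, by 0.48 and Sar1b, a GTPase of chylomicron export, by 0.42 in KO neonates (limma adjusted p = 1.16e-08, 3.47e-06 and 1.36e-05). The 1 lower call was lost with any 1 neonatal library left out. Lpin2, a phosphatidate phosphatase, was higher by 0.78, Agpat2, an acyltransferase, by 0.45 and Apob by 0.34 in KO adults (limma adjusted p = 1.17e-04, 0.0277 and 0.0376). Apob lost its adult call with any 1 adult library left out (adjusted p from 0.0558 to 0.125), and Agpat2 lost its call without KO adults replicate 2 or 3 or WT adults replicate 1 or 2 (from 0.0699 to 0.109), which left 1 call.

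Receptors and factors that sense xenobiotics and lipids numbered 12, with 5 higher and 2 lower calls in KO neonates (median 0.09) and 5 higher and 3 lower calls in KO adults (median 0.04). Ppara, the fatty acid receptor PPAR alpha, was higher by 0.97 in KO neonates and 1.17 in KO adults (limma adjusted p = 1.39e-05 and 7.82e-04). Nr1i2, the xenobiotic receptor PXR, was higher by 0.52 in both KO neonates and KO adults (limma adjusted p = 9.53e-06 and 0.00192). Nr1i3, the receptor CAR, went the other way and was called lower in KO adults (-0.36, limma adjusted p = 0.0349), though its KO and WT libraries overlapped. In KO neonates its log2 difference was -0.15 (limma adjusted p = 0.318). Rxra, the partner of these receptors, had a log2 difference of -0.40 in KO neonates (limma adjusted p = 1.16e-04) and 0.02 in KO adults (limma adjusted p = 0.876). Nr1h3, the oxysterol receptor LXR alpha, was lower in KO neonates and KO adults, with log2 differences of -0.55 and -0.78 (limma adjusted p = 6.77e-04 and 1.73e-04). Ahr, the aryl hydrocarbon receptor, had -0.55 in KO adults (limma adjusted p = 0.00165) and -0.20 in KO neonates (limma adjusted p = 0.118). With the deposited RPKM values the 3 lower adult calls became 1, and Ahr was not called (adjusted p = 0.0739). Of the 3 KDEL receptors, which return proteins with a retention signal to the endoplasmic reticulum, Kdelr3 was called lower at both ages, with log2 differences of -0.47 in neonates and -0.58 in adults (limma adjusted p = 0.00501 and 0.0118). Its adult call was lost without KO adults replicate 3 or WT adults replicate 2 (0.0621 and 0.0582).

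Over the 12 libraries, with the mean of each age subtracted, the genes most like Ces1f among 13103 compared were Aldh1a1 (r = 0.959), Tmprss15 (r = 0.958) and Adh1 (r = 0.958). Those most like Ces2e were Mgat4a (r = 0.922), Ak3 (r = 0.914) and Decr1 (r = 0.901). Within the family Ces2a was closest to Ces2c (r = 0.945) and to Ces2b (r = 0.926), while Ces2e was closest to Ces1f (r = 0.902). These r are Pearson values of log2(CPM + 1), given as a description, and all points share the KO and WT grouping and each library's depth and tissue make-up.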

How the data were processed

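Poly(A) RNA of 12 pooled small intestine samples was sequenced with a stranded kit for 36 cycles, per the labels' protocols. Reads were aligned with Bowtie 0.12.2 to mm9, per the submitters' processing notes, and HOMER's analyzeRepeats counted opposite-strand exon reads, condensed to 1 row for each gene, per the file headers. The expression columns deposited by the authors hold a signal, read counts divided by 1 factor per library. In every library 100% of values were whole multiples of 1 step within 0.01, so reads were recovered. The authors also deposited RPKM values, a log2 fold change per gene (KO minus WT in neonates, WT minus KO in adults, signs read from the values) and an adjusted p-value, used only where named.

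CPM was computed from each column's sum. Genes reaching 1 CPM in 3 or more libraries were tested with limma 3.58.1 (trended, robust) on log2(CPM + 1) in R 4.3.3, within each age and, for the difference between ages, over all 4 groups. Adjustment was by Benjamini-Hochberg over all genes tested, and genes under 0.05 were called. The procedure was tested on simulated counts in which only genes with a mean of 5 CPM or more were changed. Changes in lower genes were not covered. Fold changes on this scale understate low genes. A count of 0 was taken to allow 3 reads, which covers counting error only. Alternatives were a pseudocount of 0.25, no filter, a minimum of 5 CPM, TMM, RPKM, edgeR 4.0.16 and DESeq2 1.42.0 on the recovered reads, a single fit of all groups, a replicate block and leaving out each library. The members and all gene lists were chosen with earlier results of these data known. Besides the members, the other carboxylesterases and Ncor1, the text names up to 3 called genes per pathway list and comparison, by lowest adjusted p. Also named are the genes flanking each cluster and the 3 genes most like the most abundant member of each subfamily. Cell markers are named to show what a sum rests on, and Nr1i3 because CAR was introduced beside PXR. Replicates were not duplicates (chi-square per degree of freedom of 3.52 or more).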

Additional observations from a re-analysis of the deposited data

Results flagged for a closer look

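Ces2b was singled out because its KO minus WT difference was not the same at both ages in a test of that difference: it was 2.29 larger in adults than in neonates on the log2(CPM + 1) scale (limma adjusted p = 0.0282). It was called in 12 of 20 alternatives, and lost with a pseudocount of 0.25, edgeR, DESeq2 and 5 omissions of 1 library (adjusted p from 0.0514 to 0.415). All 3 KO libraries were above all 3 WT libraries at both ages, and the neonatal WT levels rest on 4 to 11 reads per library. The ratio of mean CPM, KO over WT, was 12.9 in adults and 4.04 in neonates.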

How the results depend on the processing

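The calls of Ces2a at both ages and of Ces1e, Ces1f and Ces2b in neonates, and of Ces2c in adults, were kept under every alternative that gave a value. DESeq2 gave no adjusted p for neonatal Ces1e, Ces1f and Ces2b and so called 4 members, and the stricter filter left out Ces1e and Ces2b. Counts of all called genes moved as follows. In neonates 1342 were higher and 1026 lower with TMM, 1358 and 1034 with edgeR, 436 higher with RPKM, and 570 lower with DESeq2. In adults 1250 were higher and 911 lower with TMM, 1243 and 917 with edgeR, 413 lower with RPKM, and 684 lower with DESeq2. For the difference between ages RPKM gave 871 higher and 121 lower. Ces2b was then the 1 member called, and with a pseudocount of 0.25, edgeR or DESeq2 0 members were called higher, while DESeq2 called 1 lower, Ces1f (-1.41, adjusted p = 0.0374). With 1 library left out, genes called ranged from 1426 to 1979 lower and 4 to 7 members higher in neonates, from 437 to 732 higher and 844 to 1840 lower in adults, and from 281 to 598 higher, 226 to 449 lower and 0 to 1 members higher for the difference. The causes were not tested.

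Values that changed sign were all uncalled. Adult Ces1e was -0.19, -0.05, -0.03 and -0.13 with KO replicate 1, KO replicate 3, WT replicate 2 or WT replicate 3 left out (range over single omissions -0.19 to 0.28), and adult Ces2g was -0.027 without WT replicate 3 (range -0.027 to 0.35). For the difference between ages, RPKM gave 0.35 for Ces2c and 0.068 for Ces2e, and Ces2c was 0.000639, 0.11, 0.03 and 0.02 without KO neonates replicate 1, WT neonates replicate 2, WT neonates replicate 3 or KO adults replicate 2 (range -0.50 to 0.11).

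Same-numbered KO and WT libraries correlated, as deviations from group means, at 0.160, 0.139 and 0.0286 in neonates and 0.0616, -0.21 and -0.12 in adults. Pairs with different numbers ranged from -0.183 to 0.0422 in neonates and from -0.129 to 0.229 in adults. These values do not settle whether same-numbered libraries were paired. With the replicate block 7 members stayed called higher in neonates. In adults Ces1g was gained (adjusted p = 0.0206), Ces2b was lost (0.0567), and 1 member, Ces1d, was called lower (-0.64, 0.00348). For the difference 2 members were called higher with the block, Ces2b and Ces2a (0.0110). Depth limits neonatal Ces1d, Ces1g and Ces2b, at 11 reads or fewer in at least 1 library each.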
